A study of Homo sapiens with 24 samples.

Results

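The MYC, MAX and MXD network was followed in LNCaP cells through 6 genes, MYC, MAX, MXD1, MXD3, MXD4 and MXI1. A gene was read through the probes whose RefSeq transcript belongs to it. These genes are 6 of 20992 genes named in this way on the array used at 24 h and 6 of 22439 on the array used at 48 h. They had 13 probes on each array, and 12 of the 13 exceeded the negative control spots at both times. MYC has its gene on chromosome 8, MAX on chromosome 14, MXD1 on chromosome 2, MXD3 on chromosome 5, MXD4 on chromosome 4 and MXI1 on chromosome 10.

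MYC is a transcription factor that drives growth, ribosome production and cell cycle entry, and it binds DNA only as a pair with MAX. The MXD proteins and MXI1 also pair with MAX, bind the same short DNA element, the E-box, and recruit SIN3 corepressors and histone deacetylases, so they act as antagonists of MYC at shared genes. MYC is short-lived and abundant in proliferating cells, while several MXD proteins are known to accumulate when cells leave the cycle or differentiate. MAX serves as the common partner of both sides.

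LNCaP is an established line from a lymph node metastasis of a prostate carcinoma, so every group is a sample of this 1 line. Cells were electroporated with a scramble siRNA (genotype label control), with si-A1 (TAPIR-1 knockdown) or with si-A2 (TAPIR-2 knockdown), and RNA was taken at 24 h and 48 h. TAPIR-1 and TAPIR-2 are long noncoding RNAs of 1 locus on chromosome 2. There were 4 biological replicates per siRNA and time, each on its own one-colour Agilent array, and 1 dim array, si-A2 replicate 2 at 48 h, was left out as in the methods of the study, leaving 3. Samples of 24 h and 48 h went onto separate array designs, so levels are not compared across times, and replicates 1 and 2 shared a slide, as did replicates 3 and 4.

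Median processed intensities of the arrays ran from 24.4 to 57.2 at 24 h and from 20.4 to 32.2 at 48 h, and between 58.5% and 71.7% of the probes of an array were rated well above background. No spot was saturated. The targeted TAPIR-2 RNA had a probe that read 5.04 ± 0.20 (SD, n = 4) in scramble, 4.64 ± 0.32 (n = 4) in si-A1 and 4.06 ± 0.74 (n = 4) in si-A2 on the log2 scale at 24 h and was rated well above background in 2 of 4 si-A2 samples. At 48 h the same probe read 4.64 ± 0.58 (n = 4), 4.82 ± 0.81 (n = 4) and 4.68 ± 0.90 (n = 3), so it gave no check of the si-A2 label there, and no probe for TAPIR-1 was used here. All 8 LNCaP markers, among them KLK3 and HOXB13, were well above background on every array. Of 8 markers of other cells, KRT5 and CHGA did not pass the limit set from the negative controls at either time, and COL3A1 passed it at 24 h alone, with 1 of 12 arrays well above background. COL1A1 was well above background on 3 of 12 arrays at 24 h and on 0 of 11 at 48 h, TP63 on 7 and 1, PECAM1 on 12 and 8, and PTPRC and CD3E on every array. At 24 h TP63 read 3.71 ± 0.43 (n = 4) in scramble and 4.42 ± 0.28 (n = 4) in si-A2, a log2 fold change of 0.71 (adjusted p of limma 0.175), and none of the other markers in this list had an unadjusted limma p under 0.05 against scramble. Their part in the results was not tested.

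Levels are given as log2 of the processed intensity after quantile normalization, in which 1 unit is a doubling, and a gene is represented by its brightest probe unless another is named. A gene was called changed where limma gave an adjusted p below 0.01, with Benjamini-Hochberg adjustment over all probes tested, and its log2 fold change was 0.5 or more in size. None of the 6 genes, and none of their 12 tested probes, was called in any comparison. The differences that came nearest followed si-A2. After it the brightest probes of MAX and MXI1 were lower, and that of MXD4 higher, than in scramble on every array at both times. The probes of MAX disagreed in sign, with the dimmest 0.24 higher at 24 h and 0.54 higher at 48 h. MYC was lower on every array of both siRNAs at 48 h, and MXD1 was higher on every si-A1 array at 48 h.

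At 24 h after si-A1, 0 of 6 genes were called, where 1.11% of the 35914 genes tested were. These include transcripts that only an accession in the array files identifies, each counted as a gene, and among the 19260 genes named like the members the share was 1.86%. Of the members, 0 of 6 had an unadjusted limma p under 0.05, where 12.6% of all genes did, and 0 of 6 had arrays that did not overlap those of scramble, where 8.97% of all genes did. The log2 fold changes lay between -0.21 and 0.11. At 24 h after si-A2, 0 of 6 genes were called, against 0.938% of all genes (1.64% of the named genes). The unadjusted limma p was under 0.05 for 3 of the 6 (MAX, MXD4 and MXI1), against 11.3% of all genes (13.9% of the named genes), and the same 3 did not overlap scramble, against 7.32%. The smallest adjusted p of limma among the members was 0.0479.

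At 48 h after si-A1, 0 of 6 genes were called, against 7.32% of the 34206 genes tested (9.96% of the 18234 named genes). The unadjusted limma p was under 0.05 for 3 of 6 (MYC, MXD1 and MXD3), against 30.7% of all genes (36.0% of the named genes), and the same 3 did not overlap scramble, against 16.0%. At 48 h after si-A2, 0 of 6 genes were called, against 0.681% of all genes (1.08% of the named genes). The unadjusted limma p was under 0.05 for 5 of 6, all but MXD1, against 18.6% of all genes (22.1% of the named genes), and these 5 did not overlap scramble, against 11.2%. The median log2 fold change of the 6 genes after si-A2 was -0.27 at 24 h and -0.39 at 48 h, while the median over all genes was 0.05 and 0.01. After si-A1 the median of the members was 0.03 at 24 h and -0.02 at 48 h, beside 0.06 over all genes at both times.

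**Figure D1:**
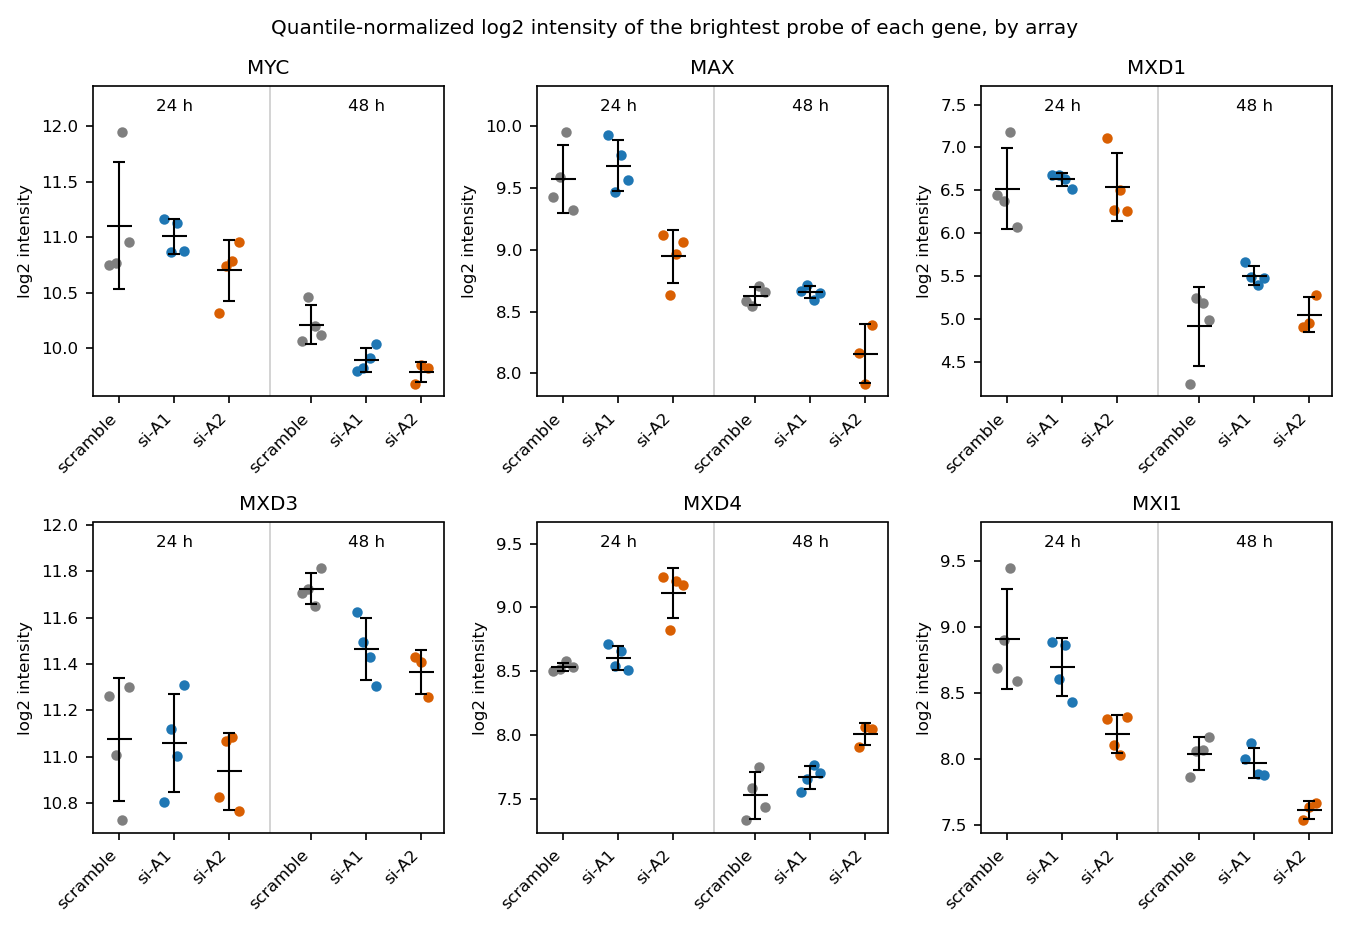
Quantile-normalized log2 intensity of the brightest probe of each gene (vertical axes, 1 panel per gene with its own range) on each array, by siRNA and time. Points are arrays, and bars are the mean ± SD of 4 arrays, or of 3 for si-A2 at 48 h. In the panels of MAX and MXI1 the si-A2 points lie below all scramble points at both times, and in the panel of MXD4 they lie above them.

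MYC, the activator of the network, was measured by 1 probe (A_23_P215956), which was well above background on every array. At 24 h it read 10.75, 10.76, 11.95 and 10.96 in scramble replicates 1 to 4, 11.16, 10.87, 11.13 and 10.88 in si-A1, and 10.32, 10.74, 10.79 and 10.96 in si-A2. Scramble replicate 3 stood above all other arrays, and the 3 groups overlapped. That array had the lowest median processed intensity at 24 h, 24.4, and also gave the highest level of MAX, MXI1 and MXD1 among the 12 arrays. Without it the log2 fold change after si-A2 at 24 h was -0.50 for MAX and -0.52 for MXI1, beside -0.63 and -0.72 with all arrays. The log2 fold change was -0.10 (SE 0.23, 95% interval -0.60 to 0.41, adjusted p of limma 0.881) after si-A1 and -0.40 (SE 0.23, interval -0.91 to 0.10, adjusted p 0.549) after si-A2. Without scramble replicate 3 the si-A1 value turned to 0.16 and the si-A2 value was -0.15. Within the slide of replicates 1 and 2, si-A1 was 0.26 above scramble, and within the other slide the difference was -0.45, so the sign of this difference was not shared by the slides.

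At 48 h MYC read 10.07, 10.46, 10.20 and 10.12 in scramble, 9.79, 9.83, 9.91 and 10.04 in si-A1, and 9.68, 9.85 and 9.82 in si-A2 replicates 1, 3 and 4. The arrays of both siRNAs lay below all scramble arrays, with the highest si-A1 array close to the lowest scramble array. The log2 fold change was -0.32 (SE 0.11, interval -0.56 to -0.07, adjusted p of limma 0.0729) after si-A1 and -0.44 (SE 0.12, interval -0.70 to -0.17, adjusted p 0.0829) after si-A2. Both missed the threshold on the p and on the size. The difference between the siRNAs was -0.12 (interval -0.39 to 0.15, adjusted p 0.645).

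MAX, the partner that MYC and the antagonists share, had 3 probes, annotated to different MAX transcripts. The brightest probe read 9.43, 9.59, 9.95 and 9.33 in scramble at 24 h, 9.93, 9.47, 9.76 and 9.56 in si-A1, and 9.12, 8.64, 8.97 and 9.06 in si-A2. Every si-A2 array lay below every array of the other groups, and si-A1 overlapped scramble. The log2 fold change after si-A2 was -0.63 (SE 0.18, interval -1.02 to -0.23), a 1.54-fold lower level, with an adjusted p of limma of 0.142. It was -0.63 within the first slide and -0.62 within the second. After si-A1 it was 0.11 (SE 0.18, interval -0.29 to 0.50, adjusted p 0.825).

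The second MAX probe (A_23_P205549) read 9.40, 8.81, 9.83 and 9.23 in scramble at 24 h and 7.997, 8.61, 8.56 and 8.47 in si-A2. The si-A2 arrays were again all below scramble, with a log2 fold change of -0.91 (SE 0.20, interval -1.34 to -0.47, adjusted p of limma 0.0442). This is the largest difference of any member probe in size among the comparisons with scramble, at 1.87-fold. The dimmest MAX probe (A_23_P436138) read between 5.46 and 5.96 in scramble and between 5.76 and 6.23 in si-A2, with a log2 fold change of 0.24 (SE 0.17, adjusted p 0.658). The probes of MAX therefore disagreed in sign after si-A2.

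At 48 h the brightest MAX probe read 8.58, 8.55, 8.71 and 8.66 in scramble, 8.66, 8.72, 8.60 and 8.65 in si-A1, and 8.16, 7.92 and 8.39 in si-A2 replicates 1, 3 and 4. The si-A2 arrays were below all 8 other arrays, with a log2 fold change of -0.47 against scramble (SE 0.12, interval -0.73 to -0.20, adjusted p of limma 0.0682). The second probe gave -0.42 (SE 0.15, adjusted p 0.178), with overlapping arrays. The dimmest probe read 4.18, 4.495, 4.93 and 4.62 in scramble and 5.21, 5.01 and 5.19 in si-A2, which is 0.54 higher (SE 0.15, interval 0.20 to 0.88, adjusted p 0.0950) and without overlap. MAX after si-A1 was within 0.03 of scramble on the brightest probe (interval -0.21 to 0.28).

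**Figure D2:**
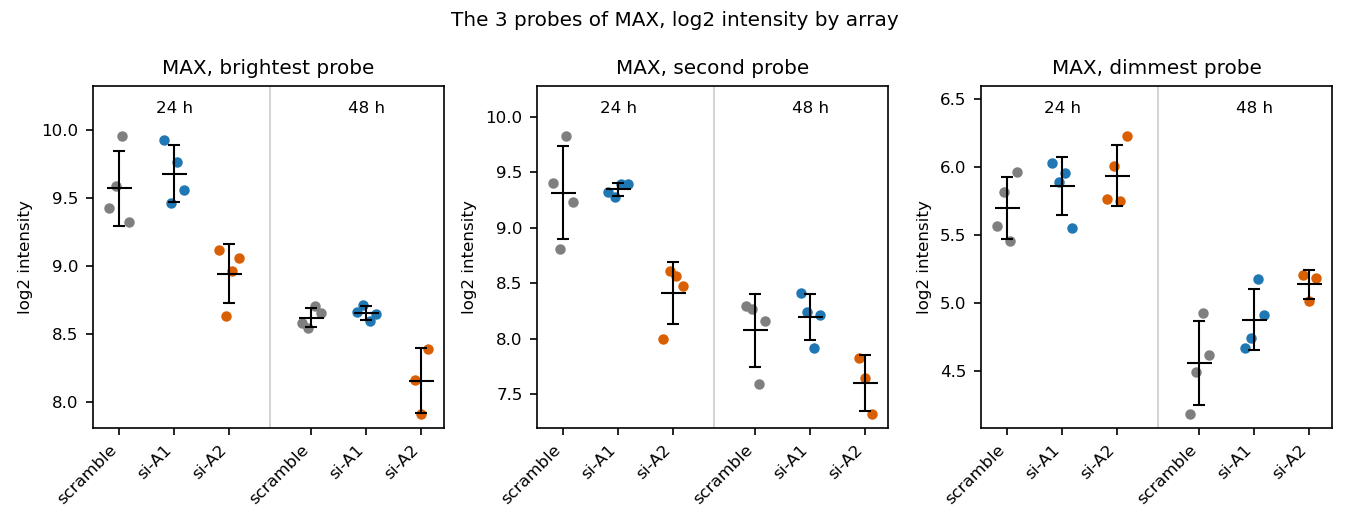
Log2 intensity (vertical axes, 1 panel per probe) of the 3 MAX probes on each array by siRNA and time. Points are arrays, and bars are the mean ± SD (n = 4, and 3 for si-A2 at 48 h). The brighter probes are lower in si-A2 than in scramble at both times, and the dimmest probe is higher, by 0.24 at 24 h and 0.54 at 48 h.

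MXD4, an antagonist expressed in many differentiated cells, was the only member whose brightest probe was higher after si-A2 at both times with an unadjusted limma p under 0.05. Its brightest probe (A_24_P234732) read 8.50, 8.52, 8.58 and 8.53 in scramble at 24 h, 8.71, 8.54, 8.66 and 8.51 in si-A1, and 9.24, 8.82, 9.20 and 9.18 in si-A2. The lowest si-A2 array, replicate 2, was still above the highest array of the other groups. The log2 fold change was 0.58 (SE 0.13, interval 0.30 to 0.86), or 1.49-fold, with an adjusted p of limma of 0.0479 after si-A2, and 0.07 (SE 0.13, interval -0.21 to 0.35, adjusted p 0.831) after si-A1. Without background correction the si-A2 value was 0.50 with an adjusted p of 0.00658, and with normexp correction it was 0.50 with an adjusted p of 0.00651, which would be a call.

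At 48 h this probe read 7.34, 7.59, 7.76 and 7.44 in scramble, 7.56, 7.66, 7.77 and 7.70 in si-A1, and 7.91, 8.06 and 8.05 in si-A2. The si-A2 arrays were above all others, by 0.46 against scramble (SE 0.11, interval 0.22 to 0.69, adjusted p of limma 0.0490). The differences within the slides were 0.45 and 0.46. The dimmer MXD4 probe (A_23_P423695) gave 0.41 (SE 0.16, adjusted p 0.320) at 24 h and 0.18 (SE 0.13, adjusted p 0.495) at 48 h, the same sign at a smaller size.

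MXI1, an antagonist also known as MXD2, had 3 probes, and all of them were lower after si-A2 at both times. The brightest (A_33_P3383029) read 8.69, 8.90, 9.44 and 8.59 in scramble at 24 h, 8.88, 8.60, 8.86 and 8.43 in si-A1, and 8.30, 8.11, 8.03 and 8.32 in si-A2. The si-A2 arrays lay below all others, while si-A1 overlapped scramble. The log2 fold change after si-A2 was -0.72 (SE 0.20, interval -1.15 to -0.28), or 1.64-fold, with an adjusted p of limma of 0.128, and after si-A1 it was -0.21 (SE 0.20, interval -0.65 to 0.23, adjusted p 0.665). The other MXI1 probes gave -0.56 (A_33_P3263902, SE 0.18) and -0.36 (A_23_P161399, SE 0.18) after si-A2, with overlapping arrays.

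At 48 h the brightest MXI1 probe read 7.87, 8.06, 8.07 and 8.16 in scramble, 7.997, 8.12, 7.88 and 7.88 in si-A1, and 7.54, 7.64 and 7.67 in si-A2. The si-A2 arrays were again below all others, with a log2 fold change of -0.43 against scramble (SE 0.11, interval -0.67 to -0.19, adjusted p of limma 0.0636). The other probes gave -0.49 (A_23_P161399, SE 0.17) and -0.17 (A_33_P3263902, SE 0.13), and the second of these overlapped scramble. The MXI1 difference was -0.42 within the first slide and -0.46 within the second.

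The promoters of MXD4, MAX and MXI1 are shown because these are the members whose si-A2 arrays stood apart from scramble at both times. The table of RefSeq promoters (GRCh38.p14) held 5 of the 6 members, each as 250 bases before and 50 bases after an annotated start, written in the direction of the gene. The windows are chr4:2262060-2262359 for MXD4 and chr14:65102234-65102533 for MAX, both on the minus strand, and chr10:110207355-110207654 for MXI1, on the plus strand. The MAX window lies inside the annotated gene, whose outer end is base 65102695. Its start is therefore not the outermost start of MAX, and the bases before that outermost start were not searched. Capitals mark the E-box CACGTG, which reads the same on both strands. It was present in 1 of the 5 member windows, that of MXD4, starting 238 bases before the start, and in 7.43% of all 27305 promoters of the table. A match is a description of the letters, and binding was not measured.
MXD4: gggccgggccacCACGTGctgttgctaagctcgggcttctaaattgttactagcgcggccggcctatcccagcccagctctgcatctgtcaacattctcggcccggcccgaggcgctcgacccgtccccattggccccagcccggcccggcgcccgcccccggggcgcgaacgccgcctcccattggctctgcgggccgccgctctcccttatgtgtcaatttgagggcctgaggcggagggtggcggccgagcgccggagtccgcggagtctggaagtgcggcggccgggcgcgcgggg
MAX: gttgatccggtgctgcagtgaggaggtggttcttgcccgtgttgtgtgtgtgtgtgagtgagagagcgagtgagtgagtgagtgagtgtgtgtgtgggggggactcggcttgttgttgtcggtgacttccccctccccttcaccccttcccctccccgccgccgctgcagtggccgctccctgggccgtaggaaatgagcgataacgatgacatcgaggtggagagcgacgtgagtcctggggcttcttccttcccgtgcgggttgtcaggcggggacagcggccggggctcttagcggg
MXI1: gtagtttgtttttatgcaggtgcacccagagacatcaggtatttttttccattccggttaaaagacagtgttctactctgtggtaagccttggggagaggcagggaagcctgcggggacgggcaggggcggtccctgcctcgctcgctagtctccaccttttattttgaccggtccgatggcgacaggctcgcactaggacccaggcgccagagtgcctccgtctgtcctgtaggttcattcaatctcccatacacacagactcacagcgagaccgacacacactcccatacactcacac

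MXD1, the antagonist first known as MAD, was measured by a probe (A_23_P408094) that read between 6.07 and 7.18 in scramble, between 6.52 and 6.68 in si-A1 and between 6.26 and 7.11 in si-A2 at 24 h. The groups overlapped, with log2 fold changes of 0.11 (SE 0.25, interval -0.45 to 0.67) and 0.02 (SE 0.25, interval -0.54 to 0.57). At 48 h it read 4.25, 5.25, 5.19 and 4.98 in scramble, 5.66, 5.49, 5.40 and 5.48 in si-A1, and 4.91, 4.96 and 5.29 in si-A2. The si-A1 arrays lay above all others, by 0.59 against scramble (SE 0.21, interval 0.12 to 1.05, adjusted p of limma 0.0811). Scramble replicate 1 was the lowest of all arrays, and without it the difference was 0.36. A further MXD1 probe (A_24_P379750) passed the limit from the negative controls on 2 of 12 arrays at 24 h and 1 of 11 at 48 h, fewer than the 3 required, and was not tested.

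MXD3, an antagonist whose RNA is known to be present in cycling cells, had a bright probe (A_33_P3297255) that read between 10.73 and 11.31 over all arrays of 24 h, and its groups overlapped. The log2 fold changes were -0.02 (SE 0.17, interval -0.40 to 0.37) after si-A1 and -0.14 (SE 0.17, interval -0.52 to 0.24) after si-A2. At 48 h it read 11.71, 11.72, 11.65 and 11.81 in scramble, 11.63, 11.49, 11.43 and 11.31 in si-A1, and 11.43, 11.41 and 11.26 in si-A2. Arrays of both siRNAs lay below scramble, with log2 fold changes of -0.26 (si-A1, SE 0.09, adjusted p of limma 0.0741) and -0.34 (si-A2, SE 0.10, adjusted p 0.0962). A dim MXD3 probe (A_24_P417706) was well above background on 6 of 12 arrays at 24 h. At 48 h it was well above background on all 4 scramble and all 4 si-A1 arrays but on 1 of 3 si-A2 arrays, so no size is given for its difference there.

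**Figure D3:**
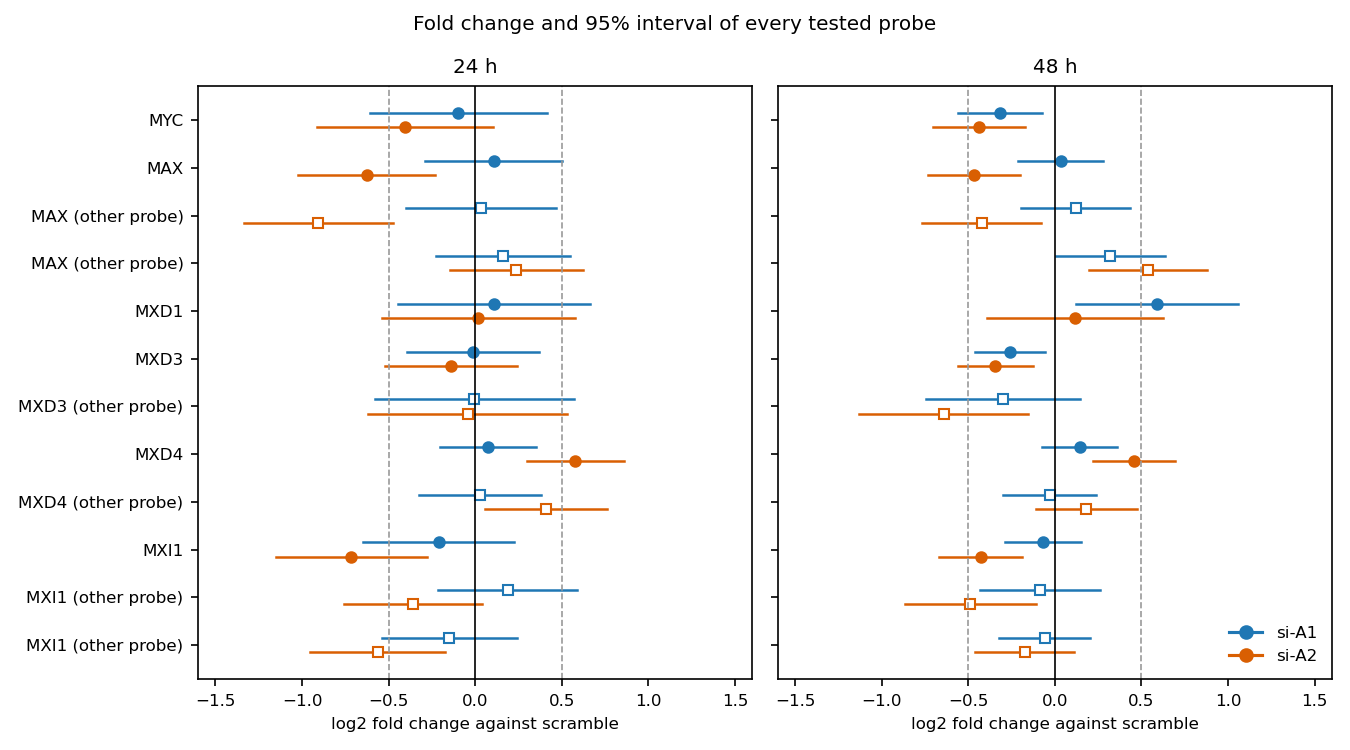
Log2 fold change against scramble (horizontal axes) of the 12 tested member probes at 24 h and 48 h, with limma's 95% intervals. Filled circles are the brightest probe of a gene, open squares its other probes, colours the siRNA, and dashed lines the size limit of 0.5. At 24 h the si-A1 estimates lie between -0.21 and 0.19, and the si-A2 estimates spread from -0.91 to 0.58.

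The siRNAs were also compared with each other. At 24 h, 0 of 6 genes were called between si-A2 and si-A1, against 0.370% of all genes, and the unadjusted limma p was under 0.05 for 3 of 6 (MAX, MXD4 and MXI1), against 10.9%. For si-A2 minus si-A1, MAX gave -0.73 (SE 0.18, adjusted p of limma 0.0824) and -0.94 on its second probe (SE 0.20, adjusted p 0.0444), MXD4 gave 0.50 (SE 0.13, adjusted p 0.0925) and MXI1 gave -0.50 (SE 0.20, adjusted p 0.336). At 48 h, 0 of 6 genes were called, against 1.94% of all genes, and the unadjusted p was under 0.05 for the same 3 genes, against 19.4%. MAX differed by -0.50 (SE 0.12, interval -0.77 to -0.23, adjusted p 0.0379), MXI1 by -0.36 (SE 0.11, adjusted p 0.0834) and MXD4 by 0.31 (SE 0.11, adjusted p 0.122). The comparisons of si-A1 and si-A2 with scramble share the scramble arrays, and their values are therefore given side by side only.

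An interaction term, fitted for 27830 genes present on both designs, tested whether an effect differed between the times. For si-A1, 0 of 6 members were called, against 0.212% of all genes, and 0 of 6 had an unadjusted limma p under 0.05, against 13.3%. For si-A2, 0 of 6 were called, against 0.0503%, and 0 of 6 had an unadjusted p under 0.05, against 7.42%. The estimate for MXD1 after si-A1 was 0.48 (interval -0.21 to 1.16), for MAX after si-A2 it was 0.19 (interval -0.27 to 0.66), and for MXD4 after si-A2 it was -0.10 (interval -0.43 to 0.22). Time cannot be told apart from array design here.

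For each member, the 3 named genes whose brightest probes followed it most closely over the 12 arrays of 24 h were taken, after removing the mean of each slide, among 19239 genes. The points share siRNA groups, slides and the scramble arrays, so the correlations are descriptions. MYC went with METAP1 (Pearson's r = 0.97), ANXA7 (0.97) and MSN (0.96), and MAX with AARS1 (0.97), RIMKLB (0.96) and PABPN1 (0.96). MXD4 went with CPNE7 (0.97), NTPCR (0.96) and SHC1 (0.94), and MXI1 with TOR1AIP2 (0.98), ATG13 (0.98) and HIPK2 (0.98). MXD1 went with PYM1 (0.94), BBOX1 (0.93) and DYNLT2 (0.93), and MXD3 with ANK2 (0.94), TMEM44-AS1 (0.94) and LINC00942 (0.94). Among the members, MAX and MXI1 had r = 0.89, MYC and MXI1 had r = 0.83, and MAX and MXD4 had r = -0.62. Without scramble replicate 3, the dimmest array of 24 h, these were 0.91, 0.64 and -0.59 over 11 arrays, and the r of MYC with MXD1 turned from 0.41 to -0.31. The 18 genes most like the members were chosen with that array in, and their correlations were not computed without it. Of these 18 genes, SHC1 was called after si-A2, at 0.83 (adjusted p of limma 0.00445).

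The partner genes of the extended network showed no call. Of 7 partner genes, 6 were tested, namely MYCL, a MYC relative, the MAX-binding repressors MNT and MGA, and MLX, MLXIP and MLXIPL of the branch that senses glucose, and 0 of 6 were called in any comparison. MNT after si-A1 at 48 h gave 0.35 (SE 0.11, adjusted p of limma 0.0497), and MLX after si-A2 at 24 h gave 0.40 (SE 0.16, adjusted p 0.353). The median log2 fold change of the 6 lay between -0.01 and 0.11 in the comparisons with scramble. Among 6 corepressor genes, which MXD proteins recruit, and the MYC cofactor MIZ1 (ZBTB17) counted with them, HDAC2, a histone deacetylase, was the 1 gene called and fell by 0.89 after si-A1 at 48 h (SE 0.10, adjusted p 0.000532). That is 1 of 6, where 7.32% of all genes were called. None of 11 coactivator genes, such as TRRAP, was called.

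Genes that act on MYC protein turnover held calls at both times. AURKA, a mitotic kinase that also stabilizes MYC family proteins, had a log2 fold change after si-A1 of -1.05 at 24 h (SE 0.15, adjusted p of limma 0.00352) and -2.84 at 48 h (SE 0.16, adjusted p 2.8e-05). With si-A2 it gave -1.13 (adjusted p 0.00224) and -1.71 (adjusted p 0.00262). With single arrays left out, the AURKA call at 24 h was lost in 5 of 12 cases for si-A1 and 2 of 12 for si-A2. At 48 h it was lost in 0 of 11 cases for si-A1 and 3 of 11 for si-A2. SKP2, a ubiquitin ligase subunit for MYC and for CDK inhibitors, fell by 2.11 at 24 h and by 2.10 at 48 h after si-A1, and was not called after si-A2. Of the genes tested, si-A1 had 2 of 8 called at 24 h and 2 of 6 at 48 h. Of all genes 1.11% and 7.32% were called there, and of the named genes 1.86% and 9.96%. After si-A2 it was 1 of 8 and 1 of 6, beside 0.938% and 0.681% of all genes (1.64% and 1.08% of the named genes). AURKA and SKP2 are also known as genes of the cell cycle. The list was chosen with earlier results of these arrays known, so these shares are not a test of it.

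Known MYC targets were described as 3 lists, chosen with earlier results of these arrays known. Of 28 genes of ribosome biogenesis, 27 were tested at 24 h and 28 at 48 h. None of them was called at 24 h, with medians of 0.11 for si-A1 and 0.22 for si-A2. At 48 h, si-A1 arrays showed 3 calls, as NCL, NOP58 and UTP20, which act in the nucleolus, fell by 0.79, 0.66 and 0.54, with a list median of -0.18. These 3 of 28 stand beside 7.32% of all genes and 9.96% of the named genes called in that comparison, a like share. With single arrays left out the calls were lost in 5 of 11 cases for NCL, 5 for NOP58 and 6 for UTP20. After si-A2 at 48 h 0 of 28 were called, with a median of -0.03. The medians of all genes given above, between 0.01 and 0.06, stand beside these.

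Of 19 targets in metabolism and growth, TFRC, the transferrin receptor, fell after si-A2 by 0.89 at 24 h (SE 0.14, adjusted p of limma 0.00583) and by 0.81 at 48 h (SE 0.10, adjusted p 0.00466), and SLC1A5, a glutamine carrier, fell by 0.99 at 48 h (SE 0.13, adjusted p 0.00648). These calls were lost with most single arrays left out, in 11 of 12 cases for TFRC at 24 h and in 10 of 11 for TFRC and for SLC1A5 at 48 h. After si-A1 at 48 h, IMPDH2, an enzyme of guanine nucleotide synthesis, rose by 0.80 and ENO1, a glycolytic enzyme, fell by 0.73. The ENO1 call was lost in 4 of 11 cases with an array left out. Called after si-A1 were 0 of 19 at 24 h and 1 higher and 1 lower of 19 at 48 h, beside 1.11% and 7.32% of all genes. After si-A2, 1 of 19 at 24 h and 2 of 19 at 48 h were called, beside 0.938% and 0.681%. The list median at 24 h was 0.02 for si-A1 and -0.07 for si-A2, and at 48 h it was -0.22 for si-A1 and -0.10 for si-A2. Of 9 targets in the cell cycle, 8 were tested, and CKS1B and E2F2 were called. After si-A1 the count was 2 of 8 at both times, beside 1.11% of all genes at 24 h and 7.32% at 48 h. After si-A2 it was 2 of 8 at 24 h and 1 of 8 at 48 h, beside 0.938% and 0.681%. E2F2, a transcription factor of S phase entry, was well above background on every scramble array but on 0 of 4 si-A2 arrays at 24 h and 0 of 4 si-A1 arrays at 48 h, at least 5.51-fold and at least 6.2-fold lower there. After si-A1 at 24 h it was also called, with a log2 fold change of -2.21. It read 6.16 ± 0.25 (SD, n = 4) in scramble and 3.94 ± 0.11 (n = 4) in si-A1, with 2 of these 4 si-A1 arrays well above background. After si-A2 at 48 h it was not called, reading 4.73 ± 0.53 (n = 3) beside 5.83 ± 0.34 (n = 4) in scramble. CKS1B, a CDK subunit, had log2 fold changes at 24 h and 48 h of -1.16 and -2.54 with si-A1, and of -0.999 and -1.46 with si-A2. Its calls after si-A2 were lost with an array left out in 5 of 12 cases at 24 h and in all 11 cases at 48 h.

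Of 8 genes that MYC is known to repress, CDKN1A, the CDK inhibitor p21, rose after si-A2 by 1.79 at 24 h (SE 0.15, adjusted p of limma 9.7e-05) and after si-A1 by 2.10 at 48 h (SE 0.18, adjusted p 8.8e-05). It was not called after si-A1 at 24 h, at 0.68 (SE 0.15, adjusted p 0.0407), or after si-A2 at 48 h, at 1.21 (SE 0.19, adjusted p 0.0130), though its arrays did not overlap scramble in either. GADD45A, a stress response gene, rose at 48 h with both siRNAs, by 0.99 (si-A1) and 1.06 (si-A2), and at 24 h it gave 0.13 (si-A1) and 0.89 (si-A2, adjusted p 0.0226), not called. Both are known targets of p53 as well. Called after si-A1 were 0 of 8 at 24 h and 2 of 8 at 48 h, beside 1.11% and 7.32% of all genes. After si-A2 it was 1 of 8 at each time, beside 0.938% and 0.681%. Other genes of the list went the other way. After si-A2, 5 of 8 were lower at both times, 2 of them with an unadjusted limma p under 0.05. After si-A1, 1 of 8 was lower at 24 h and 2 of 8 at 48 h, all with such a p. The list medians for si-A1 and si-A2 were 0.14 and -0.20 at 24 h and 0.12 and -0.07 at 48 h. PCAT1, a long noncoding RNA near MYC that was tested at 48 h alone, rose by 2.48 after si-A2 at 48 h (SE 0.21, adjusted p 0.00220), from 5.62 ± 0.46 (SD, n = 4) in scramble to 8.02 ± 0.45 (n = 3). The PCAT1 call was lost in 2 of 11 cases with an array left out. Of 5 listed transcripts of the MYC locus tested at 48 h, PCAT1 was the 1 called after si-A2, beside 0.681% of all genes. PVT1, which lies beside MYC and was read by a different probe at each time, gave 0.14 after si-A2 at 24 h and -0.04 at 48 h and was not called. Each list was chosen with earlier results of these arrays known.

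**Figure D4:**
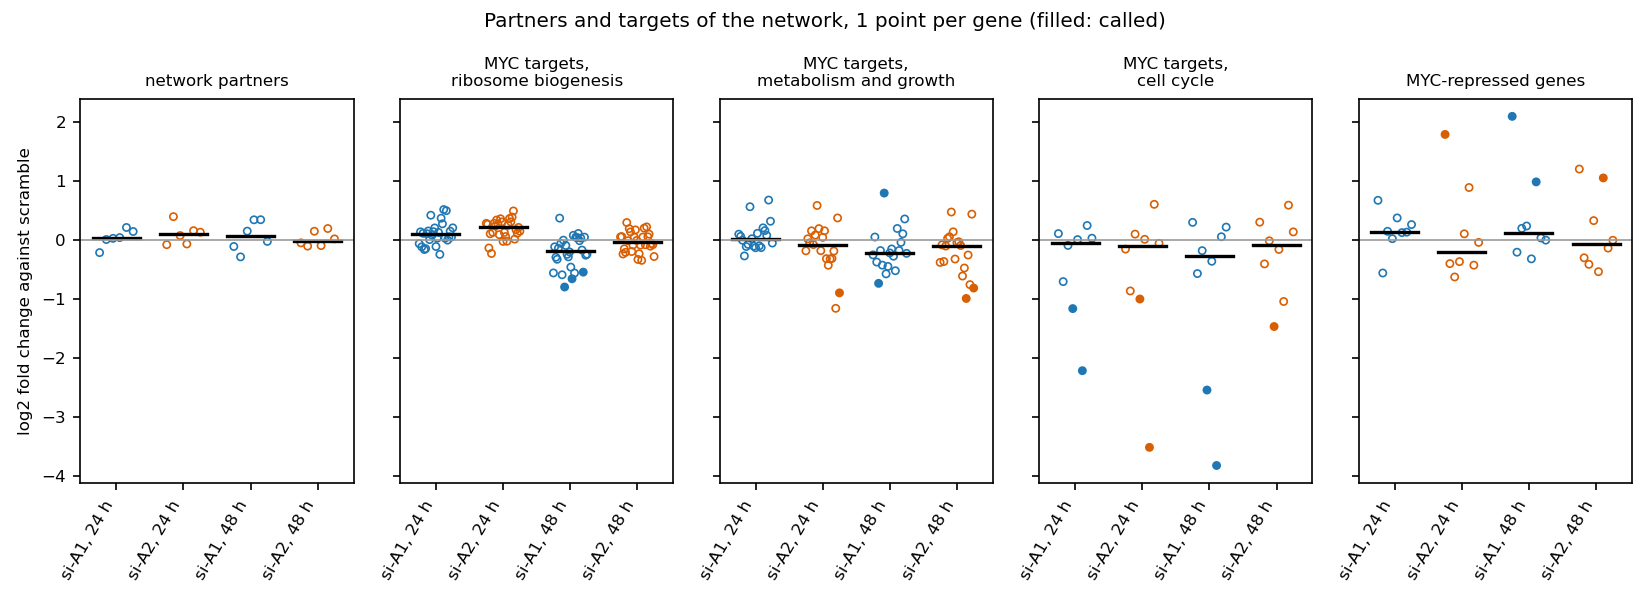
Log2 fold change against scramble (vertical axis) of network partners, 3 lists of MYC targets and a list of genes that MYC represses, by siRNA and time (horizontal axes). Each point is a gene, filled where called, and the black line is the list median. Points of E2F2 and CKS1B lie at the bottom of the cell cycle panel, CDKN1A lies at the top of the panel of repressed genes, and no partner is called.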

How the data were processed

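LNCaP RNA was hybridised to 24 one-colour Agilent arrays. The authors deposited Agilent Feature Extraction output (version 11.5.1.1), whose processed signal is a background-subtracted intensity on a linear scale without normalization between arrays, together with 1 table of log2 values per time point, which are quantile-normalized log2 processed intensities. The processing notes of the submitters name R 3.4.3, limma 3.34.8 and build hg38.

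Here the processed intensity was log2-transformed and quantile-normalized over the arrays of a time point (12 at 24 h, 11 at 48 h), outlier spots were set aside and repeated spots averaged. Probes were named through RefSeq accessions (57.4% at 24 h, 53.4% at 48 h). Testing was limited to probes that 3 or more arrays placed over a background limit, set at 3 SDs above the average of 308 negative controls (43950 probes at 24 h, 40873 at 48 h). The study's filter on an interquartile range of 0.5 was left to an alternative, since it kept 3 members at 24 h and 1 at 48 h. All 3 siRNAs entered 1 fit per time by lmFit and eBayes of limma 3.58.1 under R 4.3.3 (statmod 1.5.0 for random blocks), with the slide as an additive term. The scripts were tested on simulated data. The number of arrays limits the precision.

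Same-numbered arrays of different siRNAs came from no shared source named in the labels. Their deviations from the group means correlated between -0.15 and 0.16 at 24 h. At 48 h they correlated between 0.24 and 0.43, and arrays of other numbers on the same slide between 0.12 and 0.39. The alternatives were another scaling, background correction, the deposited log2 values, other slide terms, a replicate block, other filters, 1 probe per gene, a log2 fold change of at least 1, inclusion of the dim array, and each array left out. The correlations without scramble replicate 3 and the shares over named genes were chosen after seeing the data.

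Named genes are all members and partners, up to 4 called genes of each other list and comparison by size, and the 3 genes most like each member. The members and lists were chosen with earlier results of these data known.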

Additional observations from a re-analysis of the deposited data

Results flagged for a closer look

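In 65 groups of 4 arrays, 1 member probe each, 6 groups held an array far from the other 3, where chance gives about 1 in 20. The MXD4 probe at 24 h had a low array, si-A2 replicate 2 at 8.82, with the next at 9.18 and the highest at 9.24, and without it the difference from scramble was 0.68 in place of 0.58. Among the dimmer MXI1 probes at 24 h, si-A2 replicate 4 read 7.81 with the next at 7.44, and on the other probe si-A2 replicate 1 read 7.16 with the next at 6.53. The remaining 3 concern the MXD1 probe that was too dim to be tested, which read 3.18 in scramble replicate 3 and 3.36 in si-A1 replicate 3 at 24 h, and 5.49 in si-A1 replicate 1 at 48 h, where the next array read 1.42. That last array was the 1 of 23 on which this probe was well above background.

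The array left out at 48 h, si-A2 replicate 2, had a median processed intensity of 13.9 and was not used in the comparisons. Normalized with the other arrays, it read above all scramble arrays for MXD1 (5.63, scramble up to 5.15), MXD4 (7.98, up to 7.62) and the dim MXD3 probe (4.83, up to 4.05). It read below them for MYC (6.69, scramble from 9.99), for the brightest probes of MAX (7.12, from 8.43), MXI1 (5.93, from 7.73) and MXD3 (8.54, from 11.56), and for the dimmer MXD4 probe (4.46, from 6.02). The probes of MXD4 and those of MXD3 thus disagreed in direction on it.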

How the results depend on the processing

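The count of members called was 0 in 8 comparisons, and it stayed 0 in every one of them with each array left out in turn (0 to 0). It became 1 in si-A2 against scramble at 24 h without background correction and, likewise 1, with normexp, where MXD4 passed. At 48 h some settings gave members an adjusted p of limma below 0.01, but with a size under 0.5. The lowest after si-A2 was 0.00465 for MXI1, 0.00763 for MXD4 and 0.00987 for MXD3. It was 0.00861 for MXD3 after si-A1, and between the siRNAs 0.00765 for MAX and 0.00827 for MXI1. With the replicate block the count was 0 throughout, and MXD4 after si-A2 gave 0.58 (adjusted p of limma 0.0856) at 24 h and 0.49 (0.0533) at 48 h. Of the fold changes of members, those after si-A2 of MAX, MXD4, MXI1 and MYC kept their sign under every alternative that could be fitted. Values near 0 changed sign. With the 75th percentile MYC after si-A1 at 24 h was 0.027, MXD3 0.083, and MXD1 after si-A2 -0.014. MXD3 after si-A1 at 24 h was 0.0150 with normexp and 0.0146 without background correction, and MXD1 after si-A2 at 48 h was -0.024 and -0.033. With single arrays left out at 24 h, the range after si-A1 was -0.00070 to 0.24 for MAX, -0.22 to 0.16 for MYC, -0.046 to 0.37 for MXD1 and -0.15 to 0.076 for MXD3, that of MXD1 was -0.18 to 0.28 after si-A2 and -0.29 to 0.019 between the siRNAs, and at 48 h it was -0.088 to 0.24 after si-A2. With the dim array included GADD45A after si-A2 turned to -0.32, MYC after si-A2 at 48 h moved to -1.19 and 0 genes of all were called in that comparison. The cause was not tested. Scaling moved the median of all genes by at most 0.07.

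The member counts, at or near 0, leave little room to move, so their steadiness is not compared with that of larger counts. The counts over all genes also depended on the setting. Without leaving out arrays they ranged from 143 to 538 (si-A1) and 158 to 428 (si-A2) at 24 h, and from 28 to 2720 and 0 to 613 at 48 h, and with the replicate block they were 260 in place of 397 for si-A1 at 24 h, 44 in place of 133 between the siRNAs at 24 h, 15 in place of 233 for si-A2 at 48 h and 296 in place of 664 between the siRNAs at 48 h. Calls of the list genes were lost in 99 of 492 values under other settings and in 154 of 439 with an array left out, most often for TFRC, SLC1A5 and, between the siRNAs, SHMT2. The interquartile filter left no value for most members, so it says nothing of them.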
